A study of Mus musculus with 48 samples.

Results

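The 10 genes described here encode the core regulators of the mitochondrial route of apoptosis: the survival proteins Bcl2, Bcl2l1 (Bcl-xL) and Mcl1, the pore-forming effectors Bax and Bak1, and the BH3-only proteins Bcl2l11 (Bim), Bid, Pmaip1 (Noxa), Bbc3 (Puma) and Bad. They were chosen by name, with earlier results of these data known, from the 50600 Ensembl mouse genes counted in each library. All 10 were among the 13889 genes with enough counts to be tested. The cells were mPDAC, a cultured line from a mouse pancreatic ductal adenocarcinoma with the genetic background FVB/N x C57BL6, for which the labels also give an age of 8-week-old. They compare 3 non-treated cultures (NT, numbered 1, 2 and 4) with 3 cultures kept for 48 h with N6L (numbered 1, 2 and 3), a pseudopeptide that binds the nucleolar and cell-surface protein nucleolin, given at 50 µM according to the methods of the study. Every culture gave a cytoplasmic library, which measures the mRNA present outside the nucleus, and a polysomal library from the same lysate, which measures the mRNA that sedimented with several ribosomes, so that there were 12 libraries from 1 cell line. All cultures, controls included, received emetine before they were lysed, a drug that holds ribosomes on mRNA. The labels do not say whether the cultures came from separate passages, so the p-values below measure the spread between these cultures, which may be partly technical.

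Bcl2 family proteins decide whether the outer mitochondrial membrane stays intact. Bax and Bak1 oligomerise and open pores through which cytochrome c leaves the mitochondrion, Bcl2, Bcl2l1 and Mcl1 bind and restrain them, and BH3-only proteins act upstream by occupying the groove of the survival proteins or by activating the effectors. BH3-only proteins are raised or modified by different stresses, and pancreatic carcinoma cells are known to rely mainly on Bcl2l1 and Mcl1 for survival. Mcl1 and Pmaip1 are short-lived proteins, so their amount depends closely on ongoing synthesis.

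What the members share in sequence is the BH3 core, a short helix that takes part in their binding to one another. It was searched in the reading frame of the coding strand as a leucine codon, 2 codons of any kind, a codon for isoleucine, methionine, valine or alanine, a codon for glycine, alanine or serine, and an aspartate codon. This pattern was found in the coding sequence of all 10 members and in 8.9% of the 21782 coding genes searched (1946 genes). The pattern describes a feature these proteins are known for, so its presence in all 10 is a description and no test of enrichment. The stretches around it are shown because they are the only part that joins the 3 classes; the 18 bases of the core are in capitals, and the GENCODE vM21 transcripts (GRCm38, mm10) supplied the 30 bases and their positions.
Bcl2: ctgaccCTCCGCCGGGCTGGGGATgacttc, chr1:106712578-106712607, minus strand, coding part of exon 1.
Bcl2l1: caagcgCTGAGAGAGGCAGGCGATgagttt, chr2:152829700-152829729, minus strand, coding part of exon 2.
Mcl1: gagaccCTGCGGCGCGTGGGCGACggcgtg, chr3:95659430-95659459, plus strand, coding part of exon 1.
Bax: gagtgtCTCCGGCGAATTGGAGATgaactg, chr7:45466000-45466029, minus strand, coding part of exon 3.
Bak1: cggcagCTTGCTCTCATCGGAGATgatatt, chr17:27022534-27022563, minus strand, coding part of exon 4.
Bcl2l11: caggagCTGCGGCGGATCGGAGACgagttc, chr2:128147144-128147173, plus strand, coding part of exon 3.
Bid: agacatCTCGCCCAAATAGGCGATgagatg, chr6:120897292-120897321, minus strand, coding part of exon 4.
Bbc3: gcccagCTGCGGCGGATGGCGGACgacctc, chr7:16313767-16313796, plus strand, coding part of exon 3.
Bad: cgtgagCTCCGAAGGATGAGCGATgagttt, chr19:6950786-6950815, plus strand, coding part of exon 3.
Among these 9 cores, Bcl2l11 and Bbc3 were the most alike, with 15 of 18 bases identical, and Bcl2l1 and Bak1 the least, with 7 of 18. Pmaip1 held the pattern at 2 places and is not shown. A match to the pattern describes the letters only and does not show that a protein binds.

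Library totals ranged from 19519911 to 44972333 counts, and the lowest count of any member in any library was 150 (Bcl2 in the polysomes of N6L culture 3). Markers of ductal epithelium fitted the label, with Krt8, Krt18 and Krt19 all at 1108 CPM or more in the 12 libraries, although Epcam stayed at or below 0.301 CPM. Markers of islet cells were at 0, and those of fibroblasts and endothelium were below 1 CPM. Of the acinar markers only Cela1 was counted, at 27.6 to 82.7 CPM, and of the leukocyte markers only Cd68 exceeded 1 CPM. No source used here gives the strand setting of the counting, so overlaps with other genes may affect the counts of Bid, Bad and Bak1. On the opposite strand, exons of Bcl2l13, Gpr137 and Ggnbp1 overlap theirs by 628 bases, by 524 bases and by 177 and 437 bases. Bax shares 192 exonic bases on its own strand with Gm45808, which had 0 counts in all libraries, and how reads there were counted is not given.

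In N6L cytoplasm the mRNA of the effector Bax fell to 0.506 times its NT level, while those of the BH3-only genes Pmaip1 (1.95-fold) and Bcl2l11 (1.57-fold) and of the survival gene Bcl2 (1.56-fold) rose. The other 6 members did not pass the false discovery rate (FDR) limit of 0.05. Levels are given as CPM, counts scaled to the library total with TMM (trimmed mean of M-values) factors, which are relative to each library and cannot show the amount of mRNA per cell or tell fewer cells from less mRNA in each. Bax measured 135, 126 and 161 CPM in NT cultures 1, 2 and 4 and 74.5, 66.1 and 72.5 CPM in N6L cultures 1, 2 and 3. Every N6L culture lay below every NT culture, and the log2 fold change was -0.98 ± 0.19 (SE, FDR = 0.00341, edgeR quasi-likelihood test). Pmaip1, whose product binds Mcl1, measured 56.8, 72.6 and 56.3 CPM in NT and 100, 144 and 118 CPM in N6L cytoplasm. The groups were again apart, and Pmaip1 was 1.95-fold higher with N6L (log2 fold change 0.97 ± 0.21, FDR = 0.00603, edgeR). Bcl2l11, which binds all the survival proteins, measured 26.3, 21.8 and 21.3 CPM in NT and 42.0, 33.7 and 33.0 CPM in N6L cytoplasm. Its log2 fold change was 0.65 ± 0.19 (FDR = 0.0204, edgeR), with no overlap between the groups. Bcl2 measured 9.25, 7.49 and 7.91 CPM in NT and 11.5, 14.8 and 12.3 CPM in N6L cytoplasm. It was the least abundant member and still separated the groups, with a log2 fold change of 0.64 ± 0.19 (FDR = 0.0238, edgeR).

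**Figure D1:**
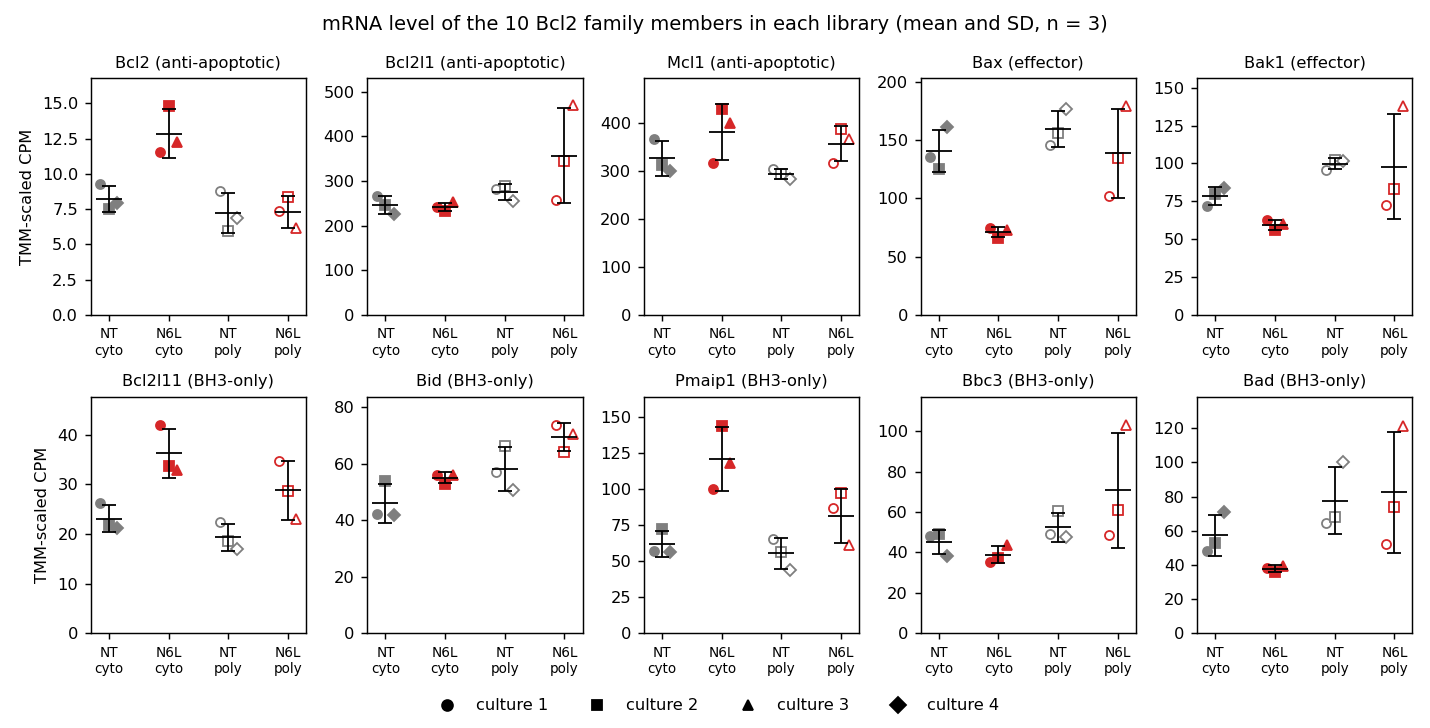
TMM-scaled CPM of each member (vertical axis, from 0) in the cytoplasmic (filled) and polysomal (open) libraries of NT (grey) and N6L (red) cultures, with the mean and SD of 3 cultures as bars. Cytoplasmic Bax lay between 66.1 and 74.5 CPM with N6L against 126 to 161 CPM without, and in N6L polysomes culture 3 was the highest for Bcl2l1, Bax, Bak1, Bbc3 and Bad.

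Among the remaining members, Bak1 and Bad were lower in all the N6L cultures than in all the NT cultures without passing the limit. Bak1, the second effector, had a log2 fold change of -0.40 ± 0.20 (FDR = 0.135, edgeR) and Bad, which binds Bcl2 and Bcl2l1 when dephosphorylated, of -0.60 ± 0.27 (FDR = 0.101, edgeR). Both passed when only the 6 cytoplasmic libraries were fitted (FDR = 0.0147 and 0.0103, edgeR). That fit also called more of all genes, 5666 instead of 3935. Bcl2l1 measured 225 to 266 CPM in NT and 234 to 252 CPM in N6L cytoplasm, a log2 fold change of -0.02 with a 95% interval from -0.42 to 0.37. The values for Mcl1 (0.23, FDR = 0.273), Bid (0.26, FDR = 0.207), which caspase-8 cleaves into its active form, and Bbc3 (-0.22, FDR = 0.489), a target of p53, did not pass either (log2 fold change, edgeR). In all, 4 of the 10 members passed, 3 higher and 1 lower, where 28.3% of all genes tested passed, 14.5% higher and 13.8% lower. Their median log2 fold change was 0.10 against 0.04 over all genes, and 6 of 10 members had groups that did not overlap, against 54.9% of all genes. The members' share of calls was thus near that of all genes, with calls in both directions.

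The call for Bax held whichever culture was left out. The call for Pmaip1 was lost without N6L culture 2 (log2 fold change 0.77, FDR = 0.0533), that for Bcl2 without N6L culture 2 (0.48, FDR = 0.164), NT culture 2 (FDR = 0.0711) or NT culture 4 (FDR = 0.0979), and that for Bcl2l11 without N6L culture 1 (FDR = 0.0549), N6L culture 2 (FDR = 0.0842), NT culture 2 (FDR = 0.0747) or NT culture 4 (FDR = 0.0965). Of the RNAs kept in the nucleus, Neat1 had a log2 fold change of 2.01 in the cytoplasm (FDR = 0.000697, edgeR) and Malat1 of 0.13 (FDR = 0.777). Together they summed to 196 to 229 CPM there and 76.0 to 128 CPM in NT cytoplasm, and their part in the members' changes was not tested.

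In the polysomes, none of the 10 members passed the limit, where 9.67% of all genes tested passed. By the unadjusted p of edgeR, 2 members were below 0.05, Bcl2l11 and Pmaip1, against 26.5% of all genes. Bcl2l11 measured 22.4, 18.6 and 17.1 CPM in NT and 34.7, 28.6 and 22.9 CPM in N6L polysomes, so that the groups were apart. Its log2 fold change of 0.58 ± 0.19 had the lowest FDR of the members (0.0662, edgeR), and DESeq2 called it (FDR = 0.0364). Pmaip1 measured 65.6, 56.7 and 44.2 CPM in NT and 86.6, 97.4 and 60.9 CPM in N6L polysomes. Here N6L culture 3 fell within the NT range, and the log2 fold change was 0.56 ± 0.21 (FDR = 0.105, edgeR). Without N6L culture 3 both passed, Bcl2l11 with FDR = 0.0316 and Pmaip1 with FDR = 0.0457 (edgeR).

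Bax, lower in N6L cytoplasm, measured 146, 156 and 177 CPM in NT polysomes and 102, 135 and 179 CPM in N6L polysomes. The N6L cultures spanned the whole NT range, and the log2 fold change was -0.20 with a 95% interval from -0.60 to 0.20. Bcl2 gave 0.02 in the polysomes, with an interval from -0.39 to 0.44. Mcl1 was slightly higher in all N6L polysomes (316, 388 and 366 CPM) than in all NT polysomes (304, 294 and 282 CPM), with a log2 fold change of 0.28 and FDR = 0.259 (edgeR). Counting Bcl2l11, 2 of 10 members had groups that did not overlap, against 25.6% of all genes. The median over the members was 0.27, with 8 of 10 above 0. Over all genes it was 0.0008, with 6956 of 13889 above 0.

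**Figure D2:**
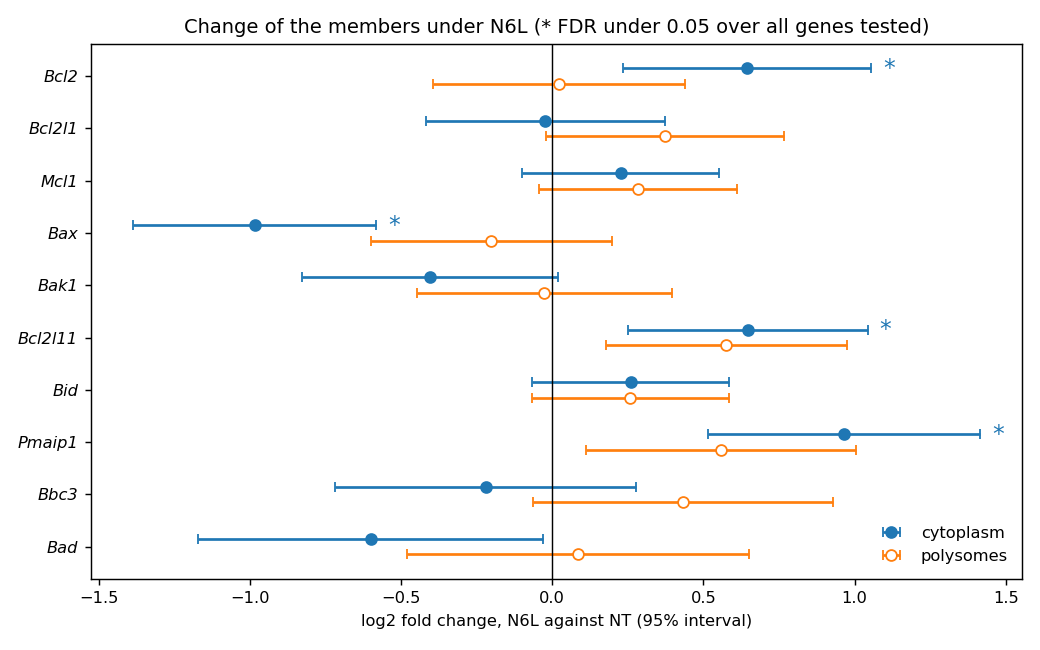
Log2 fold change of each member with N6L against NT (horizontal axis), with 95% intervals, in the cytoplasm (filled) and the polysomes (open), an asterisk marking an FDR under 0.05 over all genes tested. The asterisks are on Bcl2, Bax, Bcl2l11 and Pmaip1 in the cytoplasm, and for Bax the polysomal value of -0.20 sits well to the right of the cytoplasmic one of -0.98.

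Within a culture, the polysomal against the cytoplasmic level gives the share of an mRNA that sedimented with ribosomes, relative to other mRNAs. In NT cultures no member differed between the fractions past the limit, where 0.209% of all genes did, DESeq2 called no member either, and the lowest FDR was 0.362 (Bid, log2 ratio 0.34, edgeR). The unadjusted p of Bid was 0.0446 in that edgeR fit, below 0.05 in 1 of 10 members against 13.4% of all genes. In N6L cultures, 7 of 10 members passed, against 39.0% of all genes: 5 were relatively higher in polysomes (Bax, Bak1, Bbc3, Bad and Bcl2l1), against 18.4%, and 2 relatively lower (Bcl2 and Pmaip1), against 20.6%. The median log2 ratio of the members was 0.45 with N6L and 0.17 without, against 0.03 over all genes in both.

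For Bax the log2 ratio was 0.11, 0.31 and 0.13 in NT cultures 1, 2 and 4 and 0.46, 1.03 and 1.30 in N6L cultures 1, 2 and 3. The ratios of the groups did not overlap, and the fitted ratio with N6L was 0.96 ± 0.19 (FDR = 0.00461, edgeR). For Bcl2 it was -0.08, -0.33 and -0.20 in NT and -0.65, -0.82 and -0.99 in N6L cultures. Bcl2 thus went the opposite way to Bax, with lower ratios in every N6L culture and a fitted ratio of -0.82 ± 0.19 (FDR = 0.00723, edgeR). The BH3-only genes Bad (1.13, FDR = 0.0075) and Bbc3 (0.87, FDR = 0.0123), the effector Bak1 (0.72, FDR = 0.0134) and the survival gene Bcl2l1 (0.56, FDR = 0.0293) were higher in N6L polysomes than cytoplasm, and Pmaip1 was lower (-0.57, FDR = 0.0439; log2 ratios, edgeR). Mcl1 was near 0 in both treatments, with -0.15 in NT and -0.10 in N6L cultures.

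**Figure D3:**
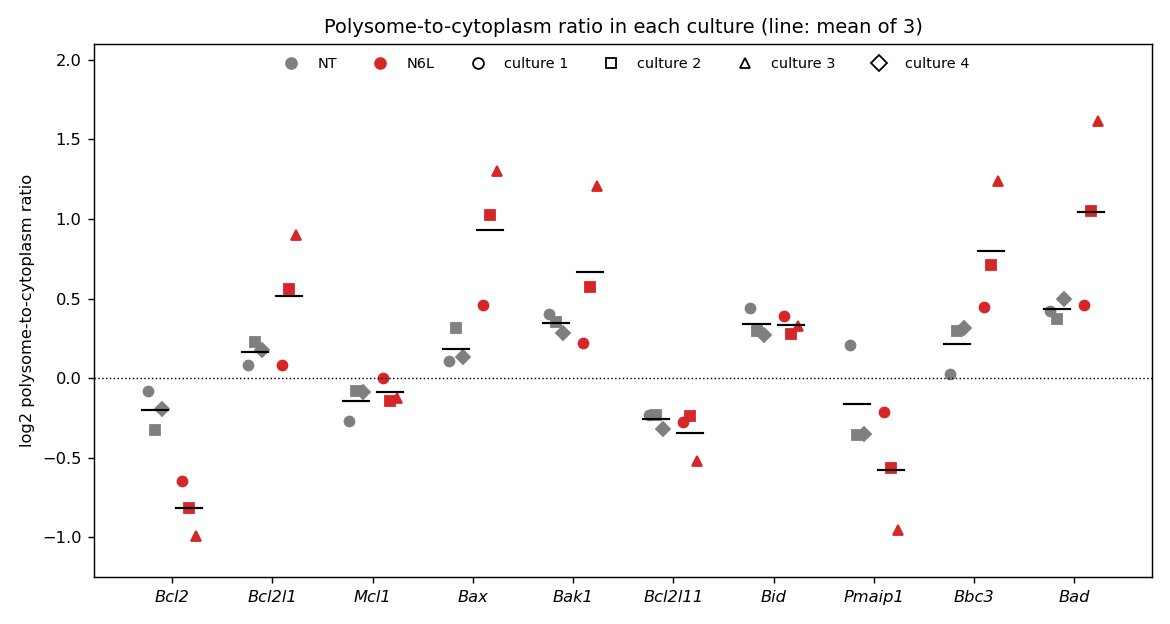
Log2 ratio of the polysomal to the cytoplasmic level of each member (vertical axis) in each NT (grey) and N6L (red) culture, with a line at the mean of 3. In N6L culture 3 the ratio reached 1.30 for Bax and 1.61 for Bad and fell to -0.99 for Bcl2, and in N6L culture 1 the ratios of Bcl2l1, Bak1 and Bad lay among or beside the NT values.

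The N6L cultures differed in how far these ratios went. N6L culture 3 had the highest ratio of the N6L cultures for all of Bax, Bak1, Bbc3, Bad and Bcl2l1 and the lowest for Bcl2, Pmaip1 and Bcl2l11. For Bad the ratios were 0.46, 1.05 and 1.61, and for Bak1 0.22, 0.58 and 1.21, in N6L cultures 1, 2 and 3. NT cultures stayed between 0.37 and 0.50 for Bad and between 0.28 and 0.40 for Bak1, so that N6L culture 1 lay inside the NT range for Bad and below it for Bak1. Without N6L culture 2 only Bax was still called (FDR = 0.0488), as against 1153 of all genes, and without N6L culture 3 only Bax (FDR = 0.0268) and Bcl2 (FDR = 0.0493), as against 1653 of all genes (edgeR). Bcl2l1 was also lost without NT culture 1 (FDR = 0.051) or NT culture 2 (FDR = 0.0512), and Pmaip1 without either of these as well. With the culture as a block, since both fractions of a culture come from one lysate, 9 members passed instead of 7, adding Bid (log2 ratio 0.33, FDR = 0.0223) and Bcl2l11 (-0.34, FDR = 0.0294, edgeR). Calls over all genes rose as well with this block, to 7460 from 5415.

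Whether the ratio differed between treatments was tested as 1 contrast, the translational index, the log2 ratio of N6L cultures minus that of NT cultures, which is also the test of whether the N6L effect differed between the fractions. None of the members passed the limit and none of all genes did (percent called 0), nor did DESeq2 call any, with a smallest FDR of 0.555 over the members (edgeR). By the unadjusted p of edgeR, 2 of 10 members were below 0.05, against 7.73% of all genes. They were Bax, with an index of 0.78 ± 0.26 (unadjusted p = 0.00994), and Bcl2, with -0.62 ± 0.27 (unadjusted p = 0.0387). The changes listed for the fractions one by one, and those of N6L cultures and NT cultures one by one, are therefore not shown to differ from each other. Nor are they shown to be alike, since the index had little power in simulated counts. There it recovered 28% of genes with a true change of 1 log2 unit, against 81% in the cytoplasm and 76% in the polysomes. The simulation changed few genes and drew the libraries independently, without the pairing of fractions, so the power in these data may differ.

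For Bax, Bcl2 and Bbc3 the ratios of the N6L cultures did not overlap those of the NT cultures, 3 of 10 members against 29.7% of all genes. The index of Bbc3 was 0.65, with a 95% interval from -0.05 to 1.36, and that of Bad was 0.69, from -0.12 to 1.49. Bid had the index nearest to 0, at -0.002 with an interval from -0.46 to 0.46, followed by Mcl1 at 0.06, from -0.41 to 0.52. The median index was 0.22 over the members and 0.008 over all genes.

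The members differ widely in the length and base composition of their mRNA, and the libraries differed in how these properties relate to the counts. Bbc3 and Bax have GC contents of 65.2% and 63.5%, higher than 99.6% and 99.2% of the genes tested. Bcl2 and Bcl2l11, with merged exons of 9157 and 8029 bases, are among the long genes, and Bax, with 1576 bases, is short. At the length and GC content of Bax, all genes followed a trend of -0.45 log2 units with N6L in the cytoplasm and of 0.51 in the index. The trend at the values of Bcl2 was 0.38 in the cytoplasm and -0.43 in the index, that is, in the direction of the gene's own change, and at those of Pmaip1 it was -0.08 in the cytoplasm.

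With the trend removed by an offset in each library, Bax (log2 fold change -0.53, FDR = 0.00538) and Pmaip1 (1.03) were still called in the cytoplasm, and Bcl2 (0.27, FDR = 0.240) and Bcl2l11 (0.32, FDR = 0.0651) were not (edgeR). When the culture number was also a block, Bcl2l11 passed there (0.35, FDR = 0.0187) and Bcl2 did not (0.30, FDR = 0.2395, edgeR). In the polysomes the correction added calls for Bcl2l11 (0.57, FDR = 0.00921) and Pmaip1 (0.63, FDR = 0.0147), and raised those over all genes from 1343 to 2660. For these BH3-only genes the corrected polysomal values were close to the uncorrected ones. In the polysome-to-cytoplasm comparison of N6L cultures only Bad remained called (0.52, FDR = 0.0345), with Bax at 0.17 (FDR = 0.298) and Bcl2 at -0.23 (FDR = 0.342). Bcl2l1 (0.28, FDR = 0.135) and Pmaip1 (-0.43, FDR = 0.0615) passed again when the culture was also a block (0.27, FDR = 0.0269, and -0.43, FDR = 0.0164, edgeR), beside Bad (0.50, FDR = 0.00531). Bax, Bak1, Bbc3 and Bcl2 passed in neither corrected fit, and whether the trend reflects the cells or the libraries was not tested.

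**Figure D4:**
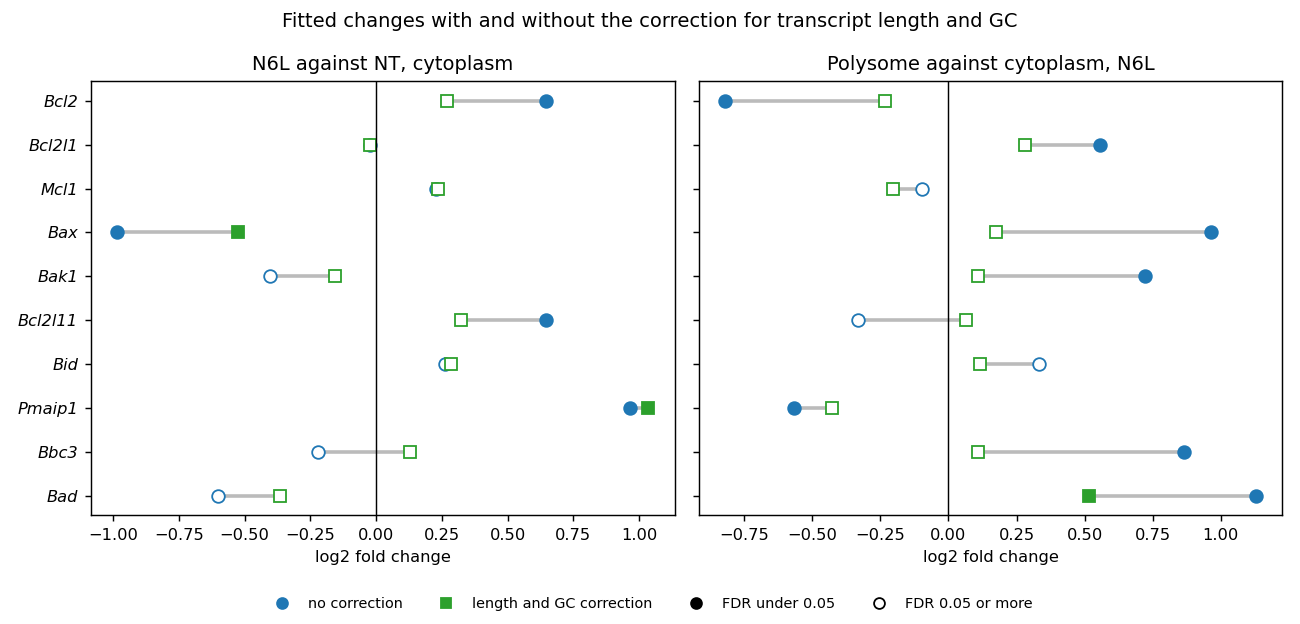
Log2 fold changes of the members without (circles) and with (squares) the length and GC correction, filled where the FDR was under 0.05, for N6L against NT in the cytoplasm (left) and for polysomes against cytoplasm in N6L cultures (right). Pmaip1 stayed near 1 in the left panel, Bax moved from -0.98 to -0.53, and in the right panel the members moved towards or past 0 apart from Mcl1, with Bad alone still filled at 0.52.

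Compared with each other per kilobase of merged exons, the members spanned a wide range of levels. Merged exons exceed the longest transcript by much for Bax (1576 against 1100 bases) and Bcl2l1 (4586 against 2568). They hardly do so for Mcl1 (3418 for both) and Pmaip1 (2732 against 2727). The order of the members, and the size of the sums and ratios below, therefore depend on the length used. In NT cytoplasm, Mcl1 (95.4 ± 10.6 CPM per kb, SD, n = 3) and Bax (89.2 ± 11.6) led and overlapped each other, followed by Bcl2l1 (53.7 ± 4.48) and Bak1 (32.7 ± 2.42). Pmaip1 (22.7), Bad (22.4) and Bbc3 (21.3) could not be ordered within their spread, and Bid (12.9), Bcl2l11 (2.88) and Bcl2 (0.897) came last (CPM per kb). The survival genes present at the highest level were thus Mcl1 and Bcl2l1, with Bcl2 at under 1 CPM per kb. In N6L cytoplasm the order began with Mcl1 (112) and Bcl2l1 (52.9), and Pmaip1 (44.2) had come level with Bax (45.1), their ranges overlapping (CPM per kb). In N6L polysomes the first 7 members formed a chain of overlapping neighbours, from Mcl1 at 104 to Pmaip1 at 29.9 CPM per kb, with Bid, Bcl2l11 and Bcl2 below and apart from each other.

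Summed by role, the effectors gave 113 to 137 CPM per kb in NT cytoplasm and 65.2 to 73.3 in N6L cytoplasm, which did not overlap. The survival genes gave 138 to 167 and 146 to 178 CPM per kb in NT and N6L cytoplasm, which overlapped. The BH3-only genes gave 77.3 to 88.3 and 89.3 to 103, which did not. Their means did not move together. With N6L, Pmaip1 (22.7 to 44.2), Bid (12.9 to 15.5) and Bcl2l11 (2.88 to 4.51) were higher. Bad (22.4 to 14.8) and Bbc3 (21.3 to 18.3) were lower (means, CPM per kb). In the polysomes the sums of the effectors overlapped, with 132 to 154 in NT and 95.3 to 171 CPM per kb in N6L cultures, as did those of the survival genes, with 139 to 151 and 149 to 210. Those of the BH3-only genes did not, with 91.1 to 96.8 in NT and 100 to 141 CPM per kb in N6L polysomes. Single genes had groups that did not overlap in 54.9% of all genes in the cytoplasm and 25.6% in the polysomes. The sums carry no correction for length and GC. These sums and the ratios that follow are descriptions with no test.

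Ratios between an effector or BH3-only gene and a survival gene show the same levels within each library, and the library's scaling factor drops out of them. The ratio of Bax to Bcl2 per kb was 84.9, 97.3 and 118 in NT cytoplasm and 37.6, 26.0 and 34.4 in N6L cytoplasm. All N6L cultures were thus below all NT cultures, at 32.6 ± 5.99 against 100 ± 16.8 (mean ± SD, n = 3). These ratios carry no correction for length and GC, which brought the cytoplasmic log2 fold changes behind them closer together, from -0.98 to -0.53 for Bax and from 0.64 to 0.27 for Bcl2. In the polysomes it was 133 ± 31.1 in NT and 115 ± 47.8 in N6L cultures, which overlapped (mean ± SD, n = 3). The ratio of Bax to Bcl2l1 ranged from 1.48 to 2.08 in NT cytoplasm and from 0.824 to 0.896 in N6L cytoplasm. In polysomes it was also lower in every N6L culture, at 1.11 to 1.16 against 1.50 to 2.02.

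The ratio of Pmaip1 to Mcl1, the survival protein that Noxa binds, was 0.193, 0.292 and 0.235 in NT and 0.398, 0.421 and 0.370 in N6L cytoplasm. The groups were apart there and overlapped in the polysomes, where N6L culture 3 had 0.208 and the NT cultures 0.196 to 0.270. The ratio of Bcl2l11 to Mcl1 was 0.0302 ± 0.000315 in NT and 0.0418 ± 0.0129 in N6L cytoplasm (mean ± SD, n = 3). The higher mean with N6L came mostly from N6L culture 1, at 0.0567, while the other N6L cultures had 0.0335 and 0.0351.

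**Figure D5:**
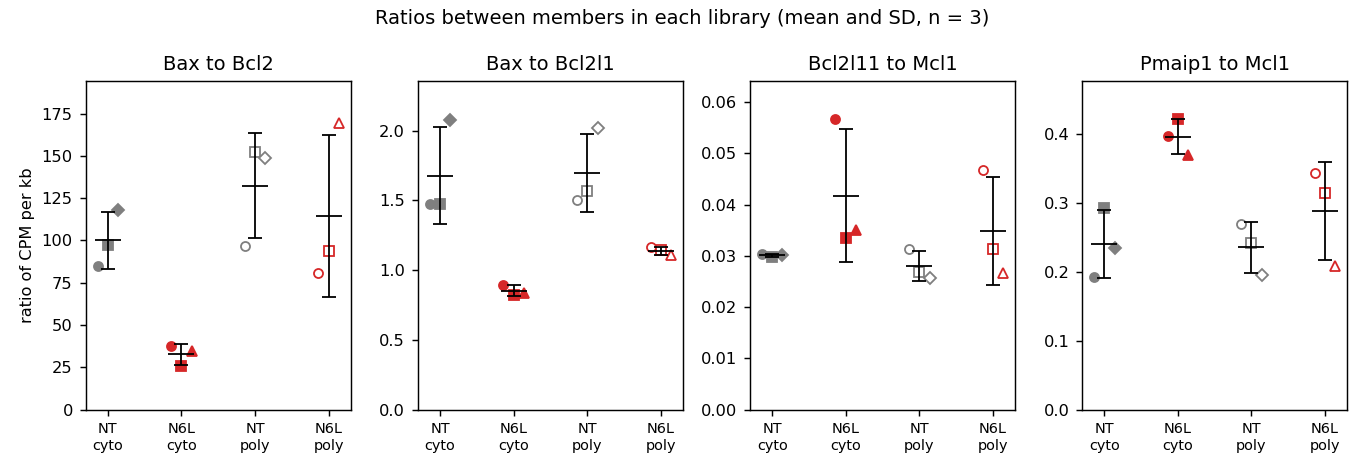
Ratio of CPM per kb between an effector or BH3-only gene and a survival gene (vertical axis, from 0) in each library, with the mean and SD of 3 cultures, for NT (grey) and N6L (red) cytoplasm (filled) and polysomes (open). In the cytoplasm Bax to Bcl2 lay between 26.0 and 37.6 with N6L and between 84.9 and 118 without, and in the polysomes the groups overlapped.

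Other genes of the pathway were taken from lists of 49 genes, of which 44 were tested. In the cytoplasm 7 passed higher and 9 lower with N6L, 36.4% against 28.3% of all genes, and in the polysomes 3 higher and 4 lower, 15.9% against 9.67%. The first count ran from 7 to 19 with 1 culture left out (7 without N6L culture 2) and reached 25 with the culture number as a block, and the second ran from 2 (without NT culture 1 or N6L culture 2) to 10. Cytoplasmic calls over all genes numbered 1295 without N6L culture 2 and 4737 with that block. Among other members of the Bcl2 family, Bmf, a BH3-only gene tied to the cytoskeleton and to loss of attachment, rose in both fractions (3.49-fold in the cytoplasm, FDR = 0.000386, and 3.64-fold in the polysomes, FDR = 0.000359, edgeR). Its fitted change was larger than that of any of the 10 members. Bok, a relative of Bax, fell by 0.76, Bcl2l12 by 0.69 and Bcl2l15 by 1.08 on the log2 scale in the cytoplasm, so that 1 of 10 tested passed higher and 3 lower.

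Of 12 genes for the apoptosome, caspases and proteins released from mitochondria, 1 passed higher and 3 lower in the cytoplasm. Casp9, the initiator caspase of the apoptosome, had a log2 fold change of 0.60, and the genes that fell, Cycs (cytochrome c, -1.15), Htra2 (-0.95) and Diablo (Smac, -0.55), encode proteins released from mitochondria. Endog (-0.90, FDR = 0.0787) and Aifm1 (0.04, FDR = 0.916), whose products are released as well, did not pass (edgeR). In the polysomes Casp9 (0.78) and Cycs (-0.997) passed again. Of the 5 inhibitors of apoptosis, Birc3 (0.80) passed higher and Birc5 (survivin, -0.86) lower in the cytoplasm. In the death receptor branch 2 of 7 passed, both higher, Tnfrsf10b, the receptor for TRAIL, at 1.26 (1.19 in the polysomes) and the kinase Ripk1 at 1.08. Of 10 regulators and partners, Foxo3 (0.83), a transcription factor known to drive Bcl2l11 and Bbc3, and Usp9x (1.76), which removes ubiquitin from Mcl1, passed higher, and the channels of the outer membrane Vdac3 (-0.53) and Vdac1 (-0.38) lower (log2 fold changes in the cytoplasm).

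In N6L cultures 11 of the 44 genes were relatively higher and 10 lower in polysomes than in cytoplasm, 47.7% against 39.0% of all genes, a count of 5 without N6L culture 2 and 7 without N6L culture 3. All 5 inhibitors of apoptosis were among them, named here after their values were seen. Birc6 (-1.77), Xiap (-1.08), Birc2 (-0.87) and Birc3 (-0.66) were lower and Birc5 (0.56) higher (log2 ratios). Usp9x (-1.66), with merged exons of 15051 bases, was also lower in polysomes. With the length and GC correction 12 of the 44 genes passed, 6 in each direction. Birc2 (-0.53), Birc5 (0.53), Birc6 (-0.79) and Usp9x (-0.63) were still called, and Xiap (-0.14, FDR = 0.615) and Birc3 (-0.46, FDR = 0.0563) were not (log2 ratios, edgeR).

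For the 4 members that passed in the cytoplasm, the genes with the most similar log2 CPM over the 12 libraries were searched among the 8958 or 8959 others averaging 10 CPM or more. Bax was closest to Imp3 (Pearson r = 0.992) and Ece2 (r = 0.990), Pmaip1 to Rin2 (r = 0.986) and F3, the tissue factor gene (r = 0.982), Bcl2l11 to Spp1, the osteopontin gene (r = 0.971) and Hs2st1 (r = 0.958), and Bcl2 to Arrdc3 (r = 0.957) and Atrnl1 (r = 0.945). These correlations describe 12 libraries that share treatment, lysate and depth, and they are given with no test.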

How the data were processed

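mPDAC lysates were cleared of nuclei and mitochondria, and polysomes were separated on sucrose gradients. Polyadenylated RNA was made into strand-specific TruSeq libraries. Per the labels and the methods of the study, the authors used bcl2fastq 2.18.0.12, STAR 2.5.2b, HTSeq 0.5.3 and the mm10 build, and the deposited values are raw counts of reads per Ensembl gene, with no normalization. No source used here names the annotation release, the strand option or the handling of multiply mapped reads. The authors tested these counts with DESeq2 1.8.1.

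The 48 deposited files hold 4 technical replicates of each of the 12 libraries, which were summed (chi-square per degree of freedom between them 1.01 to 1.05). For 3 replicates of N6L cytoplasm 2 the label fields gave different culture numbers, and they were kept with culture 2, where the chi-square per degree of freedom was 1.01 to 1.04, against 12 to 12.1 for culture 1. No row lacked a gene name. Symbols, lengths and positions were taken from GENCODE vM21 (50376 of 50600 identifiers found).

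In R 4.3.3, edgeR 4.0.16 was used with filterByExpr (13889 genes), TMM scaling, 4 group means and quasi-likelihood tests, with Benjamini-Hochberg adjustment over all genes tested and a limit of 0.05. The common biological coefficient of variation was 0.197. Log2 CPM had a prior count of 2. The alternatives were DESeq2 1.42.0, RLE size factors or library totals in place of TMM, a filter of 10 counts in all libraries or none, 1 technical replicate (a) per library, omission of the 3 conflicting replicates, omission of each culture, fits on the libraries compared only, offsets for length and GC (splines fitted in each library, with 22 genes lacking a value), and blocks. The edgeR fit was tested on simulated counts with known changes in few genes and none in the others, each library drawn independently. Of 100 genes changed by 1 log2 unit it recovered 81% in the cytoplasm, 76% in the polysomes and 28% in the index. For a change of 2 log2 units it recovered 99%, 100% and 96%.

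The cytoplasm and polysomes of a culture come from one lysate and are paired. The correlation of the deviations of both libraries from their group means was 0.364 (NT 1), 0.452 (NT 2), 0.645 (NT 4), 0.0368 (N6L 1), 0.199 (N6L 2) and 0.230 (N6L 3). The 10 members, the pathway and marker lists and the tests were chosen with earlier results of these data known. All members are named. From the other lists, genes past the limit in either fraction are named, at most 3 per list and direction by size, with a mean of at least 1 CPM, and for each member past the limit the 2 most correlated genes. No amino acid sequences were used here.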

Additional observations from a re-analysis of the deposited data

How the results depend on the processing

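Of 840 member values under the alternatives, 747 kept their direction and side of the limit, 40 lost a call, 19 gained one and 34 changed sign, none of the last being a called value. Members called in the cytoplasm numbered 4, and 2 with length and GC offsets (joined by Bcl2l11 with block and offsets), 7 with the culture number as a replicate block (adding Bak1, Bbc3 and Bad), 6 with only the libraries compared (adding Bak1 and Bad), 5 with no filter (adding Bad) and 1 to 5 with each culture left out. In the polysomes they numbered 0, and 1 with DESeq2, 1 with technical replicate a alone, 1 with the replicate block, 2 with the offsets, 2 with block and offsets and 0 to 2 with each culture left out. For polysomes against cytoplasm in N6L cultures they numbered 7, and 1 with the offsets, 3 with block and offsets and 1 to 7 with each culture left out. Here Pmaip1 was lost with RLE size factors (FDR = 0.0512), Bcl2l1 with library totals (FDR = 0.08) and both with only the libraries compared (FDR = 0.0626 and 0.0784, edgeR), and Bid was gained with DESeq2 (FDR = 0.0426). In NT cultures and for the index no member was called under any alternative. The culture block, which the lysates justify, changed no call of a member in NT cultures or for the index. Between treatments a culture number is only a shared number (correlations of deviations 0.228 and 0.0455 in the cytoplasm and 0.296 and 0.00756 in the polysomes for numbers 1 and 2).

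Calls over all genes were 3935 in the cytoplasm (1295 to 4042 with each culture left out, no filter 4403, DESeq2 4596, offsets 4308, replicate block 4737, block and offsets 4807, only the libraries compared 5666). In the polysomes they were 1343 (146 to 1579, DESeq2 2034, technical replicate a 895, offsets 2660, replicate block 1355, block and offsets 2784, only the libraries compared 328). For polysomes against cytoplasm they were 5415 in N6L cultures (1153 to 5861, DESeq2 6058, offsets 3151, block 7460, block and offsets 5578). In NT cultures they were 29 (0 to 335, no filter 647, DESeq2 281, technical replicate a 18, offsets 100, block 203, block and offsets 739, only the libraries compared 139). For the index they were 0 (0 to 1, no filter 114).

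The sign changed as follows on the log2 scale, for values that were not called. Library totals gave 0.12 for Bcl2l1 in the cytoplasm, 0.038 for Bak1 in the polysomes and -0.0041 for the index of Mcl1, and no filter gave 0.020 for Bcl2l1 in the cytoplasm. The offsets gave 0.13 for Bbc3 in the cytoplasm, -0.092 for Bad in the polysomes (-0.033 with the block), -0.061 for Bax (-0.062 with the block) and -0.00051 for Bbc3 between the fractions of NT cultures, 0.066 for Bcl2l11 (0.069 with the block) between those of N6L cultures, and indices of 0.24 for Bcl2l11 (0.24 with the block) and -0.036 for Bak1 (-0.039 with the block). The index of Bid was 0.016 with RLE size factors and with DESeq2, and technical replicate a alone gave an index of 0.071 for Bcl2l11 and 0.0051 for Bcl2 between the fractions of NT cultures. With each culture left out, Bcl2l1 in the cytoplasm ran from -0.11 to 0.037, Bad in the polysomes from -0.30 to 0.33, Bcl2 from -0.097 to 0.18 and Bak1 from -0.35 to 0.15, and the indices of Mcl1 from -0.011 to 0.13, of Bid from -0.035 to 0.069 and of Bcl2l11 from -0.11 to 0.0076. The cause was not tested.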
